A study of Mus musculus with 20 samples.

Results

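Tgm2 encodes transglutaminase 2, and its transcript was followed here across 4 treatment groups of the mouse ileal mucosa. All assays whose symbol is Tgm2 were taken, which gave 1 assay, Tgm2_Mm00436987_m1, among the 648 real-time PCR assays of an inflammation panel for 584 gene symbols. The gene was selected on its Ct values, because its level differed between the CEC and the DNBS groups, so that difference and the comparisons that share samples with it are given below as descriptions without a test. The same holds for its correlations with the 543 other assays that had a value in all 20 samples, which are part of the rule.

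The study held 5 samples in each group. The CEC group received intrarectal DNBS (dinitrobenzene sulfonic acid), a compound that binds tissue proteins and sets off colitis, with an oral treatment known from the labels only as CEC. The Nissle group received intrarectal DNBS with oral Nissle, the name of a probiotic Escherichia coli strain, and the DNBS group received intrarectal DNBS with oral phosphate-buffered saline (PBS). The healthy controls received PBS by both routes. All groups were therefore dosed by both routes, and every group but the healthy controls carried DNBS. Strain, sex, age and sampling time are not given in the sources used here. Equal amounts of RNA from the mice were combined according to the design text, and whether a sample stands for 1 mouse is unclear. Each SD, SE and p-value therefore measures only how these samples vary, and that variation may be technical.

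Transglutaminase 2 is a calcium-dependent enzyme that joins glutamine residues of one protein to lysine residues of another, and it can also deamidate glutamine. It works inside cells, at the cell surface and in the extracellular matrix. In the small intestine it is best known as the autoantigen of human coeliac disease, in which it deamidates gluten peptides. Its transcription is known to be raised by inflammatory cytokines such as interleukin 6, by transforming growth factor beta, by retinoic acid and by hypoxia through HIF-1.

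The data are cycle threshold (Ct) values, the cycle at which a reaction crosses a set fluorescence, so a lower Ct means more template. Samples had values for 570 to 594 assays, and the 544 assays common to all of them had a mean Ct of 22.6 to 24.3 cycles. Relative level means here that sample mean minus the Ct of the assay. It is on a log2 scale provided that product doubles with each cycle, which was assumed. Nissle 3, 4 and 5 carry a group label naming healthy controls while all their other labels name the Nissle treatment, and they were kept as Nissle samples. The labelled tissue was checked on enterocyte markers: 5 of their 6 assays had a value in all 20 samples, among them both assays for the apolipoprotein gene Apoa1, the keratin gene Krt8, the small-intestinal chemokine gene Ccl25 and the antimicrobial lectin gene Reg3g, with Ct values of 10.7 to 19.7, while Apoa4 had none in any sample.

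Tgm2 gave a value in all 20 samples. Its raw Ct was 19.7, 18.8, 18.8, 20.2 and 19.0 cycles in CEC 1, 3, 5, 7 and 8, and 17.7, 18.7, 18.5, 19.5 and 18.8 cycles in Nissle 1 to 5. It was 17.8, 17.7, 18.8, 17.8 and 19.2 cycles in DNBS 1 to 5, against 19.8, 19.4, 18.6, 19.0 and 19.2 cycles in healthy 1b, 3, 4, 5 and 6. The earliest values therefore lay in 3 of the DNBS samples and in Nissle 1, and the groups overlapped in raw cycles.

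As relative level, Tgm2 stood at 3.88, 4.50, 4.30, 4.10 and 4.32 in CEC 1, 3, 5, 7 and 8, and at 4.90, 4.03, 4.69, 4.57 and 4.15 in Nissle 1 to 5. It stood at 5.25, 5.08, 5.26, 5.15 and 4.56 in DNBS 1 to 5, against 4.11, 4.12, 4.39, 4.78 and 4.39 in healthy 1b, 3, 4, 5 and 6. Samples DNBS 1 to 4 held the 4 highest levels of all 20 samples, whereas DNBS 5 ranked 9th, below Nissle 1, healthy 5, Nissle 3 and Nissle 4. The lowest level was that of CEC 1.

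**Figure D1:**
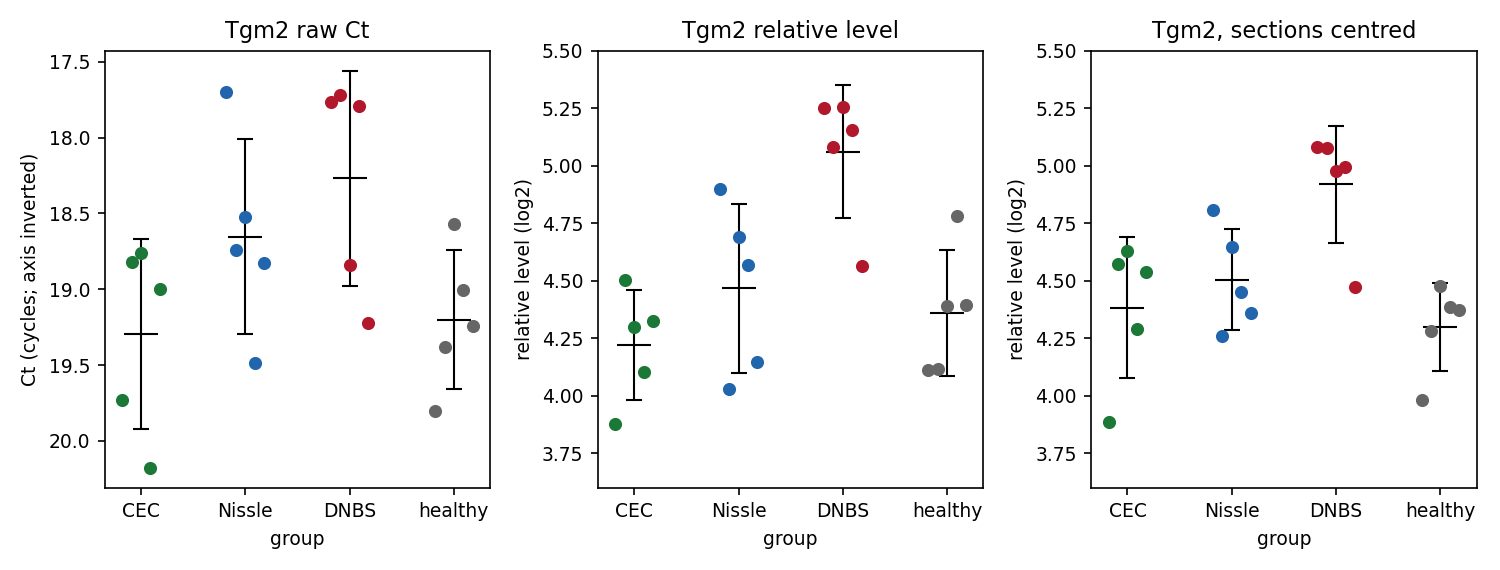
Tgm2 in each sample as raw Ct (left, inverted axis, cycles), as relative level (middle, log2) and as relative level after each block of 54 consecutive assays of the table was centred in each sample (right, log2); points are samples, bars the mean and SD of 5. DNBS 1 to 4 lie at 5.08 or higher in the middle panel and DNBS 5 at 4.56, among the other groups.

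The group means were 4.22 ± 0.24 in the CEC group, 4.47 ± 0.37 in the Nissle group, 5.06 ± 0.29 in the DNBS samples and 4.36 ± 0.27 in healthy controls (SD, n = 5 each). The DNBS group came first in this order, and all 5 CEC samples lay below its lowest sample. The Nissle, healthy and CEC groups followed with neighbouring means 0.11 and 0.14 apart, less than the SD within any of them. Tgm2 varied little between samples of a group: its pooled SD within groups was 0.30, against a median of 0.65 over the 544 assays measured in every sample, and 24 assays had a smaller one. Choosing a gene on a group difference in the same samples can itself favour a small SD.

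Between the CEC and DNBS groups, the contrast on which the gene was chosen, the log2 difference was -0.84 (SE 0.21), which is 1.79-fold lower with CEC. None of the 25 pairs of a CEC and a DNBS sample had the higher level in the CEC sample. In size, 92 of 569 tested assays differed more between these groups than Tgm2 did. Over all assays, 0 of 569 were called with limma and Benjamini-Hochberg adjustment at 0.05 (0%), and 61 had an unadjusted p under 0.05. The difference was -0.96 without DNBS 5 and -0.75 without CEC 1, the ends of its range when 1 sample was left out.

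The DNBS group lay 0.70 above the healthy controls (SE 0.21), or 1.63-fold, and 4 of 5 DNBS samples exceeded every healthy sample. In that comparison 0.176% of assays were called (1 of 569, the attractin gene Atrn), and 2 were called with the sample number of the titles as a block. The Nissle group lay 0.59 below the DNBS group (log2 difference -0.59, SE 0.21), with 3 of 25 sample pairs higher in the Nissle sample, and 0% of assays were called. The CEC group differed from the Nissle group by -0.25 (SE 0.21) and from the healthy controls by -0.14 (SE 0.21). Since these comparisons reuse the same samples, their values are tied to one another.

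The Nissle group against the healthy controls is the one comparison whose means use no sample of the contrast on which Tgm2 was chosen, and it was tested. The limma SE is pooled over all 20 samples and so draws on the CEC and DNBS samples too, while the permutation test used the 10 samples of both groups alone. The log2 difference was 0.11 (SE 0.21), with 15 of 25 sample pairs higher in the Nissle sample. The difference did not pass (limma, adjusted p = 0.878; exact two-sided permutation test, p = 0.587), while 0.176% of assays were called in that comparison. A p-value of this size does not show that the groups were alike.

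Tgm2 was also set against each of the 21 assays of 15 reference genes (genes used to normalise PCR data) in place of the panel mean. All of these differences reuse the same Tgm2 values, so they are not separate checks. The CEC minus DNBS difference was below 0 against all 21, from -1.52 against B2m to -0.29 against Hsp90ab1, with a median of -0.86. The DNBS minus healthy difference was above 0 against all 21, from 0.0090 against Pgk1 to 1.29 against B2m, with a median of 0.61. The CEC group minus the healthy controls had no common sign, with 15 differences below and 6 above 0. The Nissle minus DNBS difference was below 0 against 19 of 21, from -1.01 to 0.18, and turned sign against the other two. B2m encodes the light chain of MHC class I, and Pgk1 a glycolytic enzyme induced by hypoxia.

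**Figure D2:**
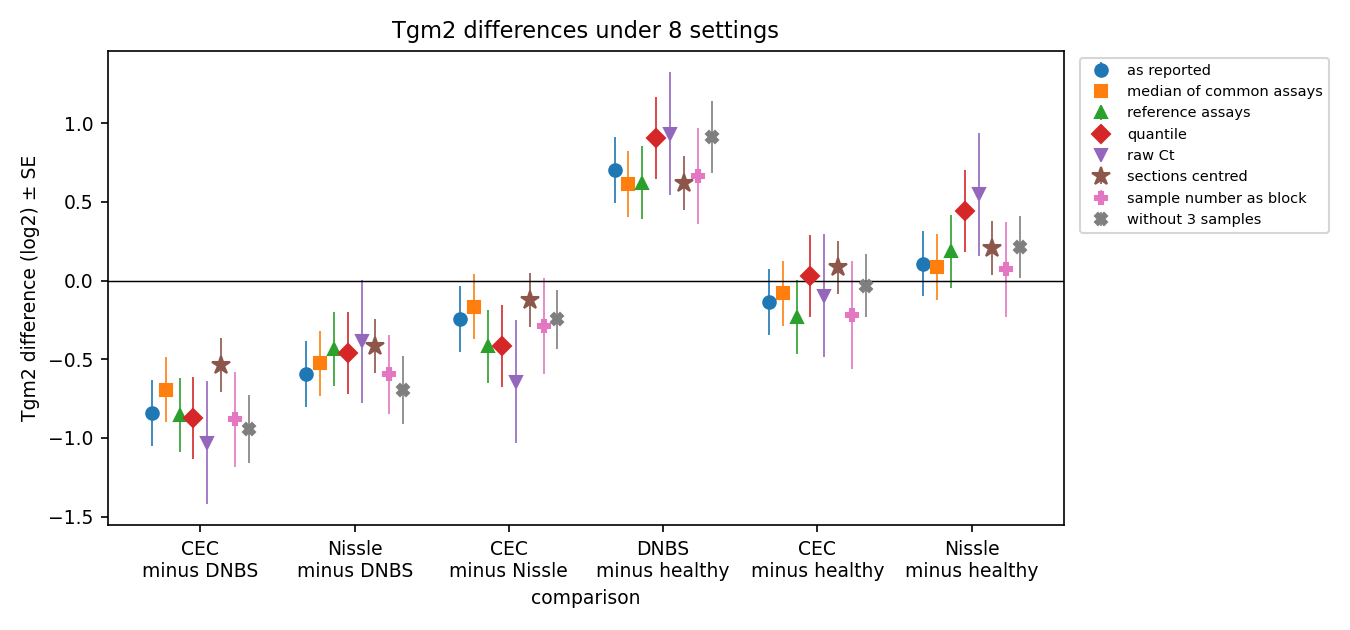
Tgm2 log2 difference (y axis, with its SE) in each of the 6 comparisons (x axis) under 8 settings, marked by symbol. CEC minus DNBS lies between -1.03 and -0.54 and DNBS minus healthy between 0.61 and 0.93, whereas CEC minus healthy lies on both sides of 0.

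The order of the assays in the table carries a pattern that touches these values. In blocks of 54 consecutive assays (12 blocks, called sections here), the relative levels of a sample shifted together, by up to 2.66 cycles between the sections of 1 sample (healthy 5). The section that holds Tgm2, the 11th, was shifted by -0.33 to -0.0057 in the CEC samples, by -0.23 to 0.12 in the Nissle samples, by 0.0070 to 0.28 in the DNBS samples and by -0.17 to 0.40 in the healthy controls. The CEC and DNBS samples did not overlap in this shift, which is a mean over the section and includes Tgm2 itself. After each section was centred, the CEC minus DNBS difference was -0.54 (SE 0.17) and the DNBS minus healthy difference 0.62 (SE 0.17), while the CEC minus healthy difference turned to 0.08. DNBS 5 then stood at 4.47, below CEC 3, 5 and 8, so the groups overlapped, and healthy 5 stood at 4.38.

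The assays whose levels across the 20 samples were most like those of Tgm2 were those for Socs1, Tirap, Hif1a, Ccr4, Il1b, Hgf, Cxcl1 and Akt1. Their Pearson r with Tgm2 was 0.69 to 0.83, at the top of 543 assays whose r had a median of -0.03 and reached from -0.56 at the 5th to 0.55 at the 95th percentile. Within each sample, both assays of a pair were measured on the same RNA and share the same subtracted panel mean. Part of each r comes from group means, so r was also computed after group means were subtracted. It was further computed without the DNBS group (15 samples), and without DNBS 1 and 3, the 2 samples farthest from the median Tgm2 level. No p-values are given for these correlations.

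Socs1, which encodes a suppressor of cytokine signalling induced through JAK and STAT proteins, had the highest r, 0.83 (Spearman's rho 0.85). Its relative level was 1.79, 2.79, 2.26, 1.47 and 2.11 in CEC 1, 3, 5, 7 and 8, and 3.77, 1.503, 2.46, 3.01 and 1.73 in Nissle 1 to 5. It was 3.47, 3.63, 2.39, 3.97 and 2.56 in DNBS 1 to 5, against 2.20, 1.72, 1.86, 3.22 and 2.41 in healthy 1b, 3, 4, 5 and 6. Nissle 1 and healthy 5, the highest of their groups for Tgm2, were also the highest for Socs1, and DNBS 3 was the sample with high Tgm2 and lower Socs1. The r was 0.76 after group means were subtracted, the highest of all 543, 0.89 without the DNBS group and 0.93 without DNBS 1 and 3. After section centring the r was 0.68, which ranked 7th. Healthy 5 then no longer had the highest Tgm2 level of its group (4.38, against 4.48 in healthy 4). With sections centred and group means subtracted, the r of Socs1 was 0.60, and that of Ccr4 was the highest, 0.72. The assay, Socs1_Mm00782550_s1, is of the single-exon class, which can also amplify genomic DNA.

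**Figure D3:**
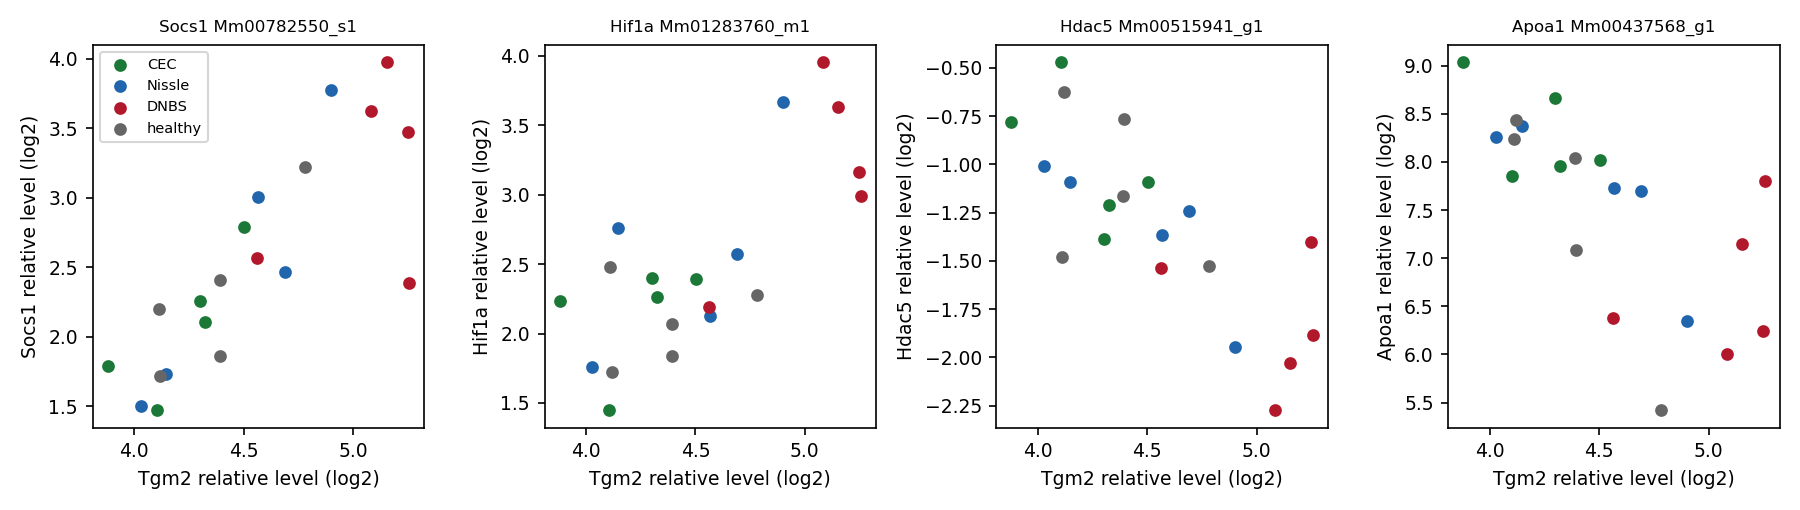
Relative level (log2) of 4 assays, those for Socs1, Hif1a, Hdac5 and Apoa1 (y axes), against that of Tgm2 (x axes) in the 20 samples, coloured by group. Socs1 follows Tgm2 within the CEC, Nissle and healthy samples as well (r 0.89 without the DNBS group), Hif1a less so (0.55), and Hdac5 and Apoa1 run the opposite way.

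Hif1a, the hypoxia-inducible transcription factor subunit, had an r of 0.75 (rho 0.67). It stood at 1.45 to 2.40 in the CEC samples (median 2.26), 1.76 to 3.67 in the Nissle samples (median 2.58), 2.19 to 3.96 in the DNBS samples (median 3.16) and 1.72 to 2.48 in the healthy controls (median 2.07). Its high values were those of DNBS 1 to 4 and Nissle 1, and DNBS 5 lay within the healthy range, as it did for Tgm2. The r was 0.55 after group means were subtracted and 0.55 without the DNBS group. Its assay lies in the same section of the table as that of Tgm2, and its r was 0.71 after section centring.

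Among the other assays of this group, Tirap, an adaptor of Toll-like receptors 2 and 4, had an r of 0.78, and Ccr4, a chemokine receptor of T cells, 0.72. Il1b, the pro-inflammatory cytokine interleukin 1 beta, had 0.72 and Cxcl1, a neutrophil chemokine, 0.70. These 4 kept an r of 0.60 to 0.73 without the DNBS group. Hgf, the ligand of the receptor Met, had an r of 0.70 and Akt1, a kinase acting downstream of PI3 kinase, 0.69. For Akt1 the r was 0.08 without the DNBS group, and for Hgf 0.46. Further assays of the same genes did not all agree: the second Il1b assay had an r of 0.35, the second Cxcl1 assay 0.60, and the other Hgf assays 0.59 and 0.19.

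The log2 differences of these assays between the CEC and DNBS groups, set beside -0.84 for Tgm2, were -1.12 for Socs1 (SE 0.41), -0.49 for Tirap (SE 0.22), -1.04 for Hif1a (SE 0.34) and -0.59 for Akt1 (SE 0.18). Ccr4 (-1.34, SE 0.73), Il1b (-1.98, SE 0.80) and Cxcl1 (-1.54, SE 0.89) had larger differences and larger errors, and Hgf stood at -0.59 (SE 0.26). The second assays of Il1b and Cxcl1 gave -0.75 (SE 1.05) and -1.07 (SE 0.78). The other Hgf assays gave -0.82 (SE 0.32) and -0.34 (SE 0.37). Since the assays of highest r were picked for running with Tgm2 in the same samples, their values describe the same pattern and do not add to it.

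After group means were subtracted, the highest r were those of Socs1, the interferon-induced chemokine gene Cxcl10 (0.73), Cxcl1 (0.71) and Ccr4 (0.68). With sections centred as well, the r of these assays were 0.60, 0.66, 0.57 and 0.72 in this order. Cxcl10 ranked 35th over all samples with an r of 0.53, and had 0.85 without the DNBS group. Its log2 difference was -0.65 for CEC minus DNBS, -1.08 for CEC minus Nissle, -0.70 for CEC minus healthy and -0.05 for DNBS minus healthy (SE 0.55 each). Nissle 1 at 3.85 and healthy 5 at 2.02 were the highest of all samples.

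At the other end, the assays for Hdac5 (assay Hdac5_Mm00515941_g1), Bdkrb2, Ccr3, Apoa1, Aoc3, Fgf12 and B2m were among the 8 that ran most opposite to Tgm2, with r of -0.78 to -0.68. Hdac5, a class IIa histone deacetylase, had the lowest r, -0.78 (rho -0.76). Its relative level was -1.39 to -0.47 in the CEC samples (median -1.09), -1.95 to -1.01 in the Nissle samples (median -1.24), -2.27 to -1.40 in the DNBS samples (median -1.88) and -1.53 to -0.63 in the healthy controls (median -1.17). The CEC samples all lay above the highest DNBS sample, by a narrow margin (-1.386 against -1.401). The assay was picked for running opposite to Tgm2, whose levels also separated these groups, so this does not add to that pattern. How many of all assays separate these groups in the same way was not counted. A second Hdac5 assay had an r of -0.68 and the remaining one -0.37, and their CEC minus DNBS differences were 1.17 (SE 0.38) and 0.40 (SE 0.43), beside 0.84 (SE 0.29) for the first.

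Apoa1, which encodes the main protein of high-density lipoprotein and is made by enterocytes and liver, had r of -0.70 and -0.62 with its 2 assays, and the first assay had -0.79 without the DNBS group. Aoc3, an amine oxidase of vessel walls that serves in leukocyte adhesion, had -0.70, and B2m -0.68. Fgf12, an intracellular fibroblast growth factor homologue, had -0.68. Bdkrb2, the bradykinin B2 receptor (-0.71), and Ccr3, the eotaxin receptor (-0.71), were measured with single-exon assays. The 52 single-exon assays had a median r of -0.38 with Tgm2, against 0.01 for all others, and the exon-junction assay of Ccr3 gave -0.33, so the class of the assay moves with this end of the ranking, and its part was not tested. After group means were subtracted, the acute-phase protein gene Orm1 (-0.68), Aoc3 (-0.63) and the ligand gene Bmp4 (-0.57) were among the 4 of lowest r. With sections centred as well, the r of these assays lay nearer to zero, at -0.50, -0.40 and -0.19.

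The genes known to induce Tgm2 were described next. Of 16 listed, 7 were on the panel and 9 of their 11 assays could be tested, while Tnf had no value in any sample. In the CEC group against the DNBS group 0 of 9 passed (0% of all 569), 7 lay below 0 and the median was -0.75, against -0.02 over all tested assays. In the DNBS group against the healthy controls 0 of 9 passed (0.176% of all), 6 lay above 0 and the median was 0.70, against -0.07 over all. Il1b, Il6 and Ifng each enter with 2 assays. The assay of Hif1a and an assay of Il1b were named above for running with Tgm2. They differed by -1.04 and -1.98 between the CEC and DNBS groups, so these medians are not separate from that choice. Il6 (assay Il6_Mm00446190_m1) differed by -2.85 between the CEC and DNBS groups (SE 1.22) and by 4.62 between the DNBS group and the healthy controls (SE 1.22), and its r with Tgm2 was 0.54. The second Il6 assay had 18 values, 1 of them at a Ct of 5.74, and its DNBS minus healthy difference had the opposite sign (-4.06, SE 3.75). Tgfb1, which encodes a classical inducer, differed by 0.28 (SE 0.33) between the CEC and DNBS groups and had an r of -0.14, and the 2 assays for interferon gamma (Ifng) had r of 0.34 and -0.02.

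Of the genes of the hypoxia response, all 5 tested assays lay below 0 in the CEC group against the DNBS group, with a median of -0.30, and 4 of 5 above 0 in the DNBS group against the healthy controls, with a median of 0.78. Over all 569 assays, 48.0% lay above 0 in the first comparison and 44.6% in the second. None of the 5 passed in either comparison, where 0% and 0.176% of all assays were called. Hif1a is among the 5, at -1.04 and 1.11 (SE 0.34 each). It was named above for running with Tgm2 in the same samples, so its signs do not add to that pattern. Pgk1 differed by -0.55 (SE 0.30) and 0.69 (SE 0.30) in these comparisons and had an r of 0.50 with Tgm2. Hmox1, heme oxygenase 1, differed by -0.30 and 0.999 (SE 0.52 each, r 0.38), and Nos2, the inducible nitric oxide synthase, by -0.07 and 0.78 (SE 0.47 each, r 0.16). Vegfa, the endothelial growth factor gene, stood at -0.12 and -0.22 with an r of 0.03.

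The 3 genes of NF-kB signalling on the panel, Nfkb1, Rela and the inhibitor gene Tnfaip3, differed by 0.65, -0.05 and -0.32 between the CEC and DNBS groups, with r of -0.38, -0.08 and 0.49. Genes for proteins that transglutaminase 2 binds or modifies had r near 0: fibronectin (Fn1) 0.09, osteopontin (Spp1) 0.09, and the GTPase gene Rhoa -0.07 to 0.02 with 3 assays. Among genes of apoptotic cell clearance, in which transglutaminase 2 takes part in macrophages, 5 of 7 lay below 0 in the CEC group against the DNBS group, with a median of -0.39. Complement C1qa had a difference of 0.41 and an r of -0.44, C1qb 0.88 and -0.34, C1qc -0.18 and 0.14, the receptor kinase gene Axl -0.42 and 0.36, and annexin A1 (Anxa1) -0.48 and 0.38. Of the retinoid and nuclear receptor genes, 2 of 3 assays lay below 0 (median -0.49), with r of -0.58 for the glucocorticoid receptor gene Nr3c1 and 0.05 and 0.19 for Pparg. None of these lists had a member that passed. Over all 569 assays, 48.0% lay above 0 in the CEC group against the DNBS group, and 0% were called. Tgm2 was the only transglutaminase gene on the panel.

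**Figure D4:**
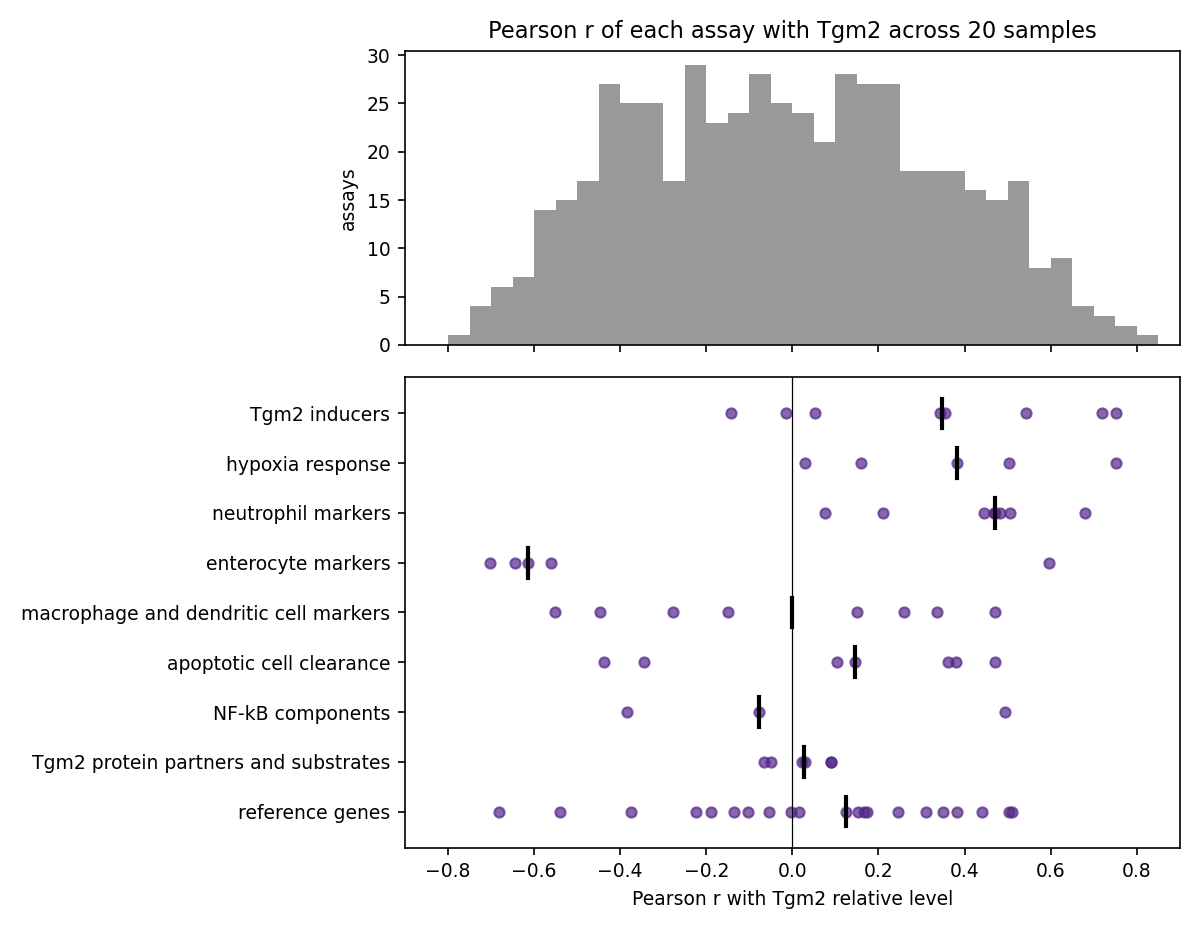
Pearson r with the Tgm2 relative level across 20 samples, as the number of assays in each bin over all 543 assays (top) and for the members of 9 gene lists (bottom; points are assays, black bars medians). Enterocyte markers other than Reg3g lie between -0.70 and -0.56, and neutrophil markers between 0.08 and 0.68.

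Markers of enterocytes and neutrophils were set beside the Tgm2 levels first. In a mucosal sample fewer cells of a type and less RNA per cell cannot be told apart. The mean relative level of the 5 enterocyte marker assays was 7.91 to 8.67 in the CEC samples and 6.90 to 8.497 in the Nissle samples. It was 6.88 to 7.88 in the DNBS samples and 6.91 to 8.41 in the healthy controls. All CEC samples lay above the highest DNBS sample, by a narrow margin (7.914 against 7.876). Apoa1 enters this mean with both of its assays. How many of all assays separate these groups was not counted, so the gap does not set the markers apart. Of these assays, those for Apoa1 (1.59 and 1.16), Krt8 (0.96) and Ccl25 (1.12) lay above 0 for CEC minus DNBS and that for Reg3g below (-0.38), against 48.0% of all 569 assays above 0, and 0 of 5 passed (0% of all). Their r with Tgm2 was -0.70 and -0.62 for Apoa1, -0.56 for Krt8, -0.64 for Ccl25 and 0.60 for Reg3g.

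The mean level of the 8 neutrophil marker assays was -2.82 to 0.45 in the CEC samples, -2.43 to 2.66 in the Nissle samples, -2.25 to 0.79 in the DNBS samples and -3.29 to -1.71 in the healthy controls. All 8 lay below 0 in the CEC group against the DNBS group (median -1.22) and above 0 in the DNBS group against the healthy controls (median 2.14). Over all 569 assays 48.0% and 44.6% lay above 0 in these comparisons, and the medians were -0.02 and -0.07. None of the 8 passed in either, where 0% and 0.176% of all were called. The lactoferrin gene Ltf had the highest r of them with Tgm2, 0.68, followed by the oxidase subunit gene Ncf1 with 0.51, and the calprotectin gene S100a8 had 0.48 and 0.47. Camp and Fpr1 had the lowest r, 0.08 and 0.21. Their CEC minus DNBS differences were near 0, at -0.05 (SE 0.83) and -0.08 (SE 0.58). The 8 macrophage and dendritic cell marker assays had a median difference of 0.21 between the CEC and DNBS groups, 4 of them below 0. Their r with Tgm2 had both signs. It was -0.55 for Cx3cr1, -0.45 for Cd86, -0.28 for the integrin gene Itgam and -0.15 for Fcgr2b. For Mrc1, the mannose receptor, it was 0.15, for Cd163 0.26, for Ccr2 0.34 and for Cd14 0.47. The CEC minus DNBS difference was 1.28 (SE 0.40) for Cx3cr1, 1.25 (SE 0.55) for Cd86, -0.65 (SE 0.48) for Ccr2 and -0.47 (SE 0.55) for Cd14. The T and B cell markers Cd4 and Cr2 differed by 0.26 and -0.54, with r of -0.30 and 0.24. The panel held 2 of the 13 endothelial markers and 1 of the 14 stromal and muscle markers: P-selectin (Selp), the one endothelial marker tested, had an r of 0.43 and Fn1 of 0.09. Both the endothelium and stromal cells are known to express Tgm2. The part of any of these cell types in the Tgm2 differences was not tested.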

How the data were processed

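The authors deposited 1 table of Ct values, raw per the file headers, from TaqMan OpenArray mouse inflammation plates, per the labels' protocols. RNA extraction used a mirVana kit. Values of 40 (1273 of 12960 cells, 9.82%) stood for no amplification and were set missing, and 1 cell was empty. No coordinates or sequences were used here.

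Relative levels were computed as described in the report. The 569 assays that had 3 or more values per group were fitted with limma 3.58.1 in R 4.3.3: 4 group means over all 20 samples, trended empirical Bayes, two-sided tests, Benjamini-Hochberg adjustment over all 569 at 0.05. The fit and the ranking of correlations were tested on simulated data. The exact permutation test ran over the 10 samples compared.

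Tgm2, the lists and the named genes were chosen with earlier results of these data known. Named are the 8 assays of highest and the 8 of lowest r with Tgm2, the 4 highest and 4 lowest after group means were subtracted, further assays of the same genes, up to 4 members of a list with the lowest mean Ct, and the genes of Tgm2 biology (Il6, Il1b, Tgfb1, Ifng, Hif1a). Hmox1, Ltf, Camp, Cx3cr1, Cd86, Fcgr2b, Cd163, Axl and Atrn fall outside this rule and were chosen after their values were seen. Gene names are those of the table, and 2 assays that the rule names are not reported here.

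The titles number the samples. DNBS and healthy samples of the same number (3 pairs) deviated together from their group means (r of 0.14 to 0.49). Nissle and healthy samples of the same number did not (r of -0.40 to -0.15). The remaining group pairs ranged from -0.35 to 0.44, so the numbers show no common pairing. The labels give no shared litter or day, and the main fit has no block. No replicate pair held identical values. The alternatives are listed in the closing section. Section centring, leaving out the 3 samples of widest section shifts, and leaving out the DNBS group or the 2 samples of farthest Tgm2 level were chosen after seeing the data.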

Additional observations from a re-analysis of the deposited data

Results flagged for a closer look

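Dixon's test of the most distant sample in a group of 5 was applied to Tgm2 and 6 assays most like or most opposite to it, in 28 groups, of which chance flags about 1 in 20. It marked 4. Tgm2 in DNBS 5 stood at 4.56, with the next DNBS sample at 5.08, and without DNBS 5 the CEC minus DNBS difference was -0.96 in place of -0.84. Tirap was marked in Nissle 2, at -0.46, and in DNBS 4, at 0.99. Hif1a was marked in CEC 7, at 1.45, the next CEC sample being at 2.24.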

How the results depend on the processing

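Every Tgm2 difference was recomputed under 14 settings and with each of the 20 samples left out. The CEC minus DNBS difference moved by more than the SD within groups after section centring (-0.54), and the CEC minus Nissle difference without normalization (-0.64). Nissle minus healthy, 0.11 as reported, was 0.55 without normalization and 0.44 after quantile normalization, past the threshold in neither. Leaving out 1 sample gave -0.96 to -0.75 for CEC minus DNBS, -0.72 to -0.48 for Nissle minus DNBS, -0.35 to -0.14 for CEC minus Nissle, 0.64 to 0.83 for DNBS minus healthy, -0.21 to -0.03 for CEC minus healthy, and -0.00029 to 0.22 for Nissle minus healthy, the lowest without Nissle 1, where the sign turned. With the replicate block the 6 differences were -0.88, -0.59, -0.29, 0.66, -0.22 and 0.07, and Nissle minus healthy had adjusted p-values of 0.562 to 0.999 over all settings. CEC minus healthy turned sign as well, to 0.03 after quantile normalization and 0.08 after section centring.

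The counts of called assays were 0 under all 34 alternatives for CEC minus DNBS, Nissle minus DNBS and CEC minus Nissle. For DNBS minus healthy the count was 1, but 0 without normalization, 9 in a fit to both groups alone, 2 with the replicate block, and 1 to 7 with 1 sample left out (7 without DNBS 5, 6 without Nissle 1). For CEC minus healthy it was 1, but 0 with the median of common assays, quantile or no normalization, both groups alone, the block, and without Nissle 3, 4 and 5, 2 with undetermined values set to 40, and 0 to 1 with 1 sample left out. For Nissle minus healthy it was 1, but 0 without normalization, with both groups alone, with the block and without Nissle 3, 4 and 5, 3 with undetermined values set to 40, and 0 to 1 with 1 sample left out.

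Of the 16 assays ranked most like or most opposite to Tgm2, 6 were still among the first or last 8 after group means were subtracted, 8 without the 2 farthest samples, 8 with reference assays, 6 without normalization, 5 after quantile normalization, 6 after section centring, 6 without the DNBS group, and 8 to 16 with 1 sample left out (8 without CEC 1). Of 512 recomputed r, 506 kept their sign. The 6 that turned did so without normalization, where the template amount of a sample enters every assay, among them Hdac5 0.12, Bdkrb2 0.15, Ccr3 0.041, Aoc3 0.079 and B2m 0.26. The cause of the other moves was not tested. Tgm2 was measured at a Ct of at most 20.2 cycles, well below the limit of 40.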
